A study of Mus musculus with 9 samples.

Results

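Epididymosomes are extracellular vesicles that the epithelium of the epididymis sheds into the lumen, where they hand proteins and small RNAs to passing sperm. The genes described here encode 9 proteins by which such vesicles are recognised or made. They are the tetraspanins Cd9, Cd63, Cd81 and Cd151, the ESCRT subunit Tsg101, its partner Alix (Pdcd6ip), syntenin (Sdcbp) and the GTPases Rab27a and Rab27b. They were taken by name from the 32195 genes of a single-cell RNA sequencing (scRNA-seq) table of the mouse epididymis, and were described across segments, ages and cell populations.

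The study sequenced the caput (head), corpus (body) and cauda (tail) of epididymides of untreated C57BL/6 mice in 9 libraries. Each segment was sampled from 1 pool of mice aged 42 days (P42), when the first wave of sperm passes, and from 2 pools aged 56 days (P56), called replicates 1 and 2. A pool mixes the tissue of several mice, and its 3 segments share those mice. With 1 pool at P42, age and pool cannot be told apart, and no p-value covers a spread beyond these pools. Tests that compare populations use several populations of the same library, which share mice and are not separate samples.

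Extracellular vesicles form by budding from the plasma membrane or as internal vesicles of endosomes that fuse with the surface. Tetraspanins are membrane-spanning proteins that gather other proteins into patches and serve as the standard markers of vesicles, with Cd63 residing mostly in late endosomes and Cd9 and Cd81 mostly at the surface. Tsg101 belongs to the ESCRT machinery, which buds vesicles inward, Alix and syntenin link syndecans to that machinery, and the Rab27 GTPases dock endosomes and secretory granules at the membrane before release.

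The promoters of 3 of these tetraspanins are shown first, because Cd9, Cd63 and Cd81 fell together from the caput to the corpus and cauda. The sequences are those of RefSeq for the build GRCm38.p6, from 250 bases before to 50 bases after 1 annotated start of each gene, written 5′ to 3′ on the strand of the gene. Cd9 spans chr6:125460266-125494760 on the minus strand and its promoter is chr6:125494711-125495010. Cd81 spans chr7:143052750-143067930 on the plus strand and its promoter is chr7:143052500-143052799. Cd63 spans chr10:128896231-128912822 on the plus strand and its promoter is chr10:128909095-128909394. Among the other genes, of which the position of Rab27b is not given here, Cd151 lies at chr7:141467362-141471481, Tsg101 at chr7:46888949-46926320, Pdcd6ip at chr9:113651744-113708279, Rab27a at chr9:73044810-73097623 and Sdcbp at chr4:6365680-6396122. Capitals mark the GC box (GGGCGG or its complement CCGCCC) and the CCAAT box (CCAAT or its complement ATTGG), searched on both strands.
Cd9: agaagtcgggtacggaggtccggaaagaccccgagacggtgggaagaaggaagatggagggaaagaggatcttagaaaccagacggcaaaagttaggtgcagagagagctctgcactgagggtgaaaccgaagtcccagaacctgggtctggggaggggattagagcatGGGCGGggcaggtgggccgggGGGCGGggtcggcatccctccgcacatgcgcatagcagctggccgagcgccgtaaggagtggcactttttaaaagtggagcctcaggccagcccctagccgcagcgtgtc
Cd81: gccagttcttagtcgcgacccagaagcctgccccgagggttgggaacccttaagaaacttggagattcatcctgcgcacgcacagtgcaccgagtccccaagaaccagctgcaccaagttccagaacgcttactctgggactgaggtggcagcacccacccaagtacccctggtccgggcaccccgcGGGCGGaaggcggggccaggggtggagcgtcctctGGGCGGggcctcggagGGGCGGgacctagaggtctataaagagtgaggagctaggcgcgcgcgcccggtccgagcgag
Cd63: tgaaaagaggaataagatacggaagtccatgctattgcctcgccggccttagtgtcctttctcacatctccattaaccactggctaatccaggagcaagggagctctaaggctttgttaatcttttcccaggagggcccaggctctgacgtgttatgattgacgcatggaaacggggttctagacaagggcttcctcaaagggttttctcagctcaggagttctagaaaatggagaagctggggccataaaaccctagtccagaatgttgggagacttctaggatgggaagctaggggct

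The window of Cd9 holds 2 GC boxes, that of Cd81 holds 3, and that of Cd63 holds neither of the motifs. The GC content was 61.3% in Cd9, 65.7% in Cd81 and 49.3% in Cd63, against a median of 52.7% over 32851 promoters of the same length. A GC box was found in 35.7% and a CCAAT box in 37.4% of these promoters. The 3 genes thus do not share these letters in this window, and a match is a description of the sequence only. The windows of Cd9 and Cd81 lie at the 5′ end of the span of the gene, whereas that of Cd63 lies at a start inside its span.

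The libraries held between 23114756 and 50655384 unique molecular identifiers (UMIs), each of which counts 1 captured transcript, and 4209 to 4910 cells per library passed quality control. The median depth was 3088.5 to 7644 UMIs per cell, and mitochondrial transcripts took a median of 5.985% to 6.365% of a cell's UMIs in the 3 caput libraries and of 10.751% to 23.815% in those of the corpus and cauda. The P42 cauda had the lowest depth, and most of its principal cells formed a low-UMI cluster of their own (cluster 9). A cluster without another name was called principal if 3 or more of 26 principal markers were 1.5-fold or more above their level in the named cells of its libraries. Cluster 9 had 14 such markers. Against all other cells none of the 26 reached 2-fold in it, while 6 myoid/fibroblast and 5 macrophage/monocyte markers did. The principal clusters 0, 1, 2, 12, 20 and 27 of the corpus and cauda had 6, 7, 7, 9, 8 and 12 such markers. Against all other cells 2, 1, 3, 1, 3 and 5 of the 26 reached 2-fold in them, and no myoid/fibroblast or macrophage/monocyte marker did. The leading genes of cluster 9 included Car3, Notum, Cma1 and S100a8. Results are also given without the P42 pool or without this cluster where that changes them. Between libraries 116 cell barcodes were shared, and 41810 were kept in 1 library only. Cells were clustered with the vesicle genes left out, and clusters were called principal-like, basal-like, clear/narrow-like, myoid/fibroblast-like, macrophage/monocyte-like, endothelial-like, halo/T-like or sperm-like from markers. The short names below stand for these. Of 42087 cells, 21099 were principal, 3726 basal, 3974 clear/narrow, 4463 myoid/fibroblast, 2557 macrophage/monocyte, 776 endothelial, 262 halo/T and 660 sperm, and 3810 cells stayed unnamed, in clusters with too few markers, with markers of more than 1 population or led by cell cycle genes. A further 154 cells, all from the caput, were ciliated-like and were not in the tests between populations. The other 606 cells were globin-rich and were left out of all sums. The sperm cluster had 7 ciliated markers at 2-fold or more within its libraries beside 12 sperm markers, a pair that the naming rule allowed. At resolution 2, 507 cells were named sperm, and a cluster of 155 cells with 7 ciliated and 7 sperm markers at 2-fold was named ciliated. Unnamed cells numbered 261, 355 and 597 in the caput, 239, 123 and 111 in the corpus and 163, 902 and 1059 in the cauda. Among them, cluster 17 (944 cells, 854 of them from the cauda and 913 from P56) had all 11 clear/narrow markers at 2-fold or more over all other cells, but within its libraries 8 basal markers reached that level beside 10 clear/narrow markers. Cluster 15 (1005 cells, 994 of them from the cauda), led by Sprr2f and Nipal1, had 2 of 26 principal markers at 1.5-fold and so just missed the name principal. Of the markers of principal cells, 17 of 26 were highest in principal cells, and 9 of 11 basal, 13 of 14 myoid/fibroblast and all clear/narrow, macrophage/monocyte, endothelial, halo/T and sperm markers were highest in their own population. The largest principal cluster (cluster 0) was led by the immunoglobulin genes Iglc1, Jchain, Igkc and Ighm. Levels below are in CPM, the UMIs of a gene per 1000000 UMIs, summed over the cells of a population in a library, and are given in the order P42, P56 replicate 1 and P56 replicate 2. In such sums, fewer expressing cells and less RNA per cell cannot be told apart.

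In principal cells, the secretory cells that line most of the duct, the 3 tetraspanins most used as vesicle markers were far higher in the caput than further down. Cd63 stood at 1580, 1460 and 1310 CPM in the caput, at 294, 309 and 261 in the corpus and at 383, 118 and 104 in the cauda. Every caput library lay above every other library, and the P42 cauda lay above both P56 cauda libraries. Cd63 fell 4.65-fold from caput to corpus (log2 fold change -2.22 ± 0.32 SE, adjusted p = 0.00112 by the quasi-likelihood test of edgeR, with p-values adjusted after Benjamini and Hochberg over all genes, n = 3 pools) and 7.22-fold from caput to cauda (-2.85 ± 0.33, adjusted p = 0.000399). These calls and the fall of Cd9 from caput to corpus held under every alternative that was run for them, mitochondrial genes left out included. Measures of the libraries moved along the same axis, with a lower mitochondrial share in the caput. In addition, the 14 myoid/fibroblast markers summed in principal cells to 2410, 2060 and 1960 CPM in the caput, to 1640, 224 and 220 in the corpus and to 16300, 489 and 450 in the cauda. The part of either in the segment differences was not tested.

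Cd9, which is also needed on the egg surface for fusion with sperm, had its lowest level in the middle of the duct. Cd9 stood at 506, 428 and 461 CPM in the caput, at 97.7, 41.9 and 46.5 in the corpus and at 185, 152 and 158 in the cauda. The 3 segments did not overlap. Cd9 fell 7.4-fold from caput to corpus (log2 -2.89 ± 0.26, adjusted p = 0.000105) and 2.41-fold from caput to cauda (-1.27 ± 0.24, adjusted p = 0.00487, edgeR), and rose 3.07-fold from corpus to cauda (log2 1.62 ± 0.25, adjusted p = 0.00482, edgeR). With 1 pool fewer the last rise kept its direction but missed the threshold without P56 replicate 1 (log2 1.34, adjusted p = 0.118) or replicate 2 (1.48, adjusted p = 0.0949), and the fall from caput to cauda missed it without replicate 2 (-1.34, adjusted p = 0.0512).

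Cd81 showed the widest spread between pools. Cd81 stood at 464, 415 and 483 CPM in the caput, at 212, 151 and 58.3 in the corpus and at 203, 23.4 and 23.9 in the cauda. The caput lay above all other libraries, but the corpus and cauda overlapped, and the P56 corpus libraries differed 2.59-fold from each other. Cd81 fell 7.93-fold from caput to cauda (log2 -2.99 ± 0.57, adjusted p = 0.00464, edgeR) and 3.65-fold from caput to corpus (-1.87 ± 0.53, adjusted p = 0.0257, edgeR). The fall to the corpus missed the threshold without P56 replicate 1 (log2 -2.10, adjusted p = 0.0784), without replicate 2 (-1.34, adjusted p = 0.191), with the pool not used as a block (-1.67, adjusted p = 0.0746), with each cell gated on its markers (-2.12, adjusted p = 0.0508) and with cells thinned to 1000 UMIs (-1.69, adjusted p = 0.0787). The fall to the cauda missed it without P56 replicate 2 (-2.40, adjusted p = 0.0534). From corpus to cauda Cd63 and Cd81 had log2 differences of -0.63 (adjusted p = 0.239) and -1.12 (adjusted p = 0.22), and with the P42 pool left out these were -1.16 (adjusted p = 0.000389) and -1.83 (adjusted p = 0.00138).

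**Figure D1:**
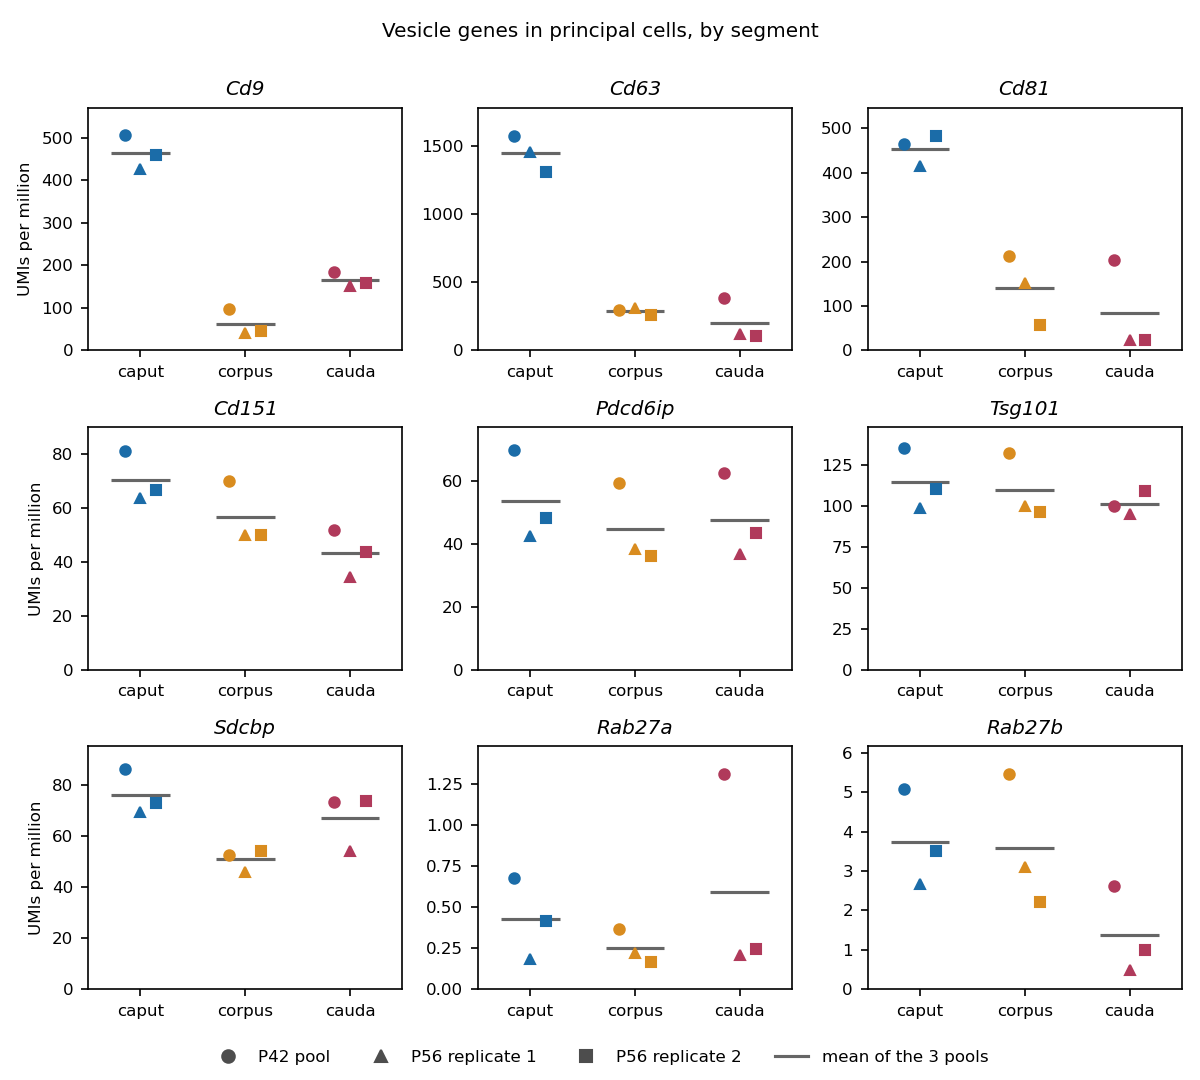
Levels of the 9 vesicle genes in principal cells (CPM, linear axes that start at 0 and differ between genes) by segment, with 1 point per pool and a line at the mean of the 3 pools. Cd9, Cd63 and Cd81 are highest in the 3 caput libraries, while Tsg101 and Pdcd6ip overlap between the segments.

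Among the other genes, smaller differences between pairs of segments passed for Cd151 and syntenin, while their test over all 3 segments did not (adjusted p = 0.054 and 0.0517, edgeR). Cd151, a tetraspanin that binds laminin-binding integrins, stood at 81.1, 63.6 and 66.8 CPM in the caput and at 51.9, 34.6 and 43.8 in the cauda, so that every cauda library lay below the caput. It fell 1.41-fold from caput to cauda (log2 -0.50 ± 0.14, adjusted p = 0.0268, edgeR), a call that was lost without P56 replicate 1 (-0.46, adjusted p = 0.274), without replicate 2 (-0.65, adjusted p = 0.0802), with cells thinned to 1000 UMIs (adjusted p = 0.104) and without cluster 9 (-0.56, adjusted p = 0.0614). Syntenin (Sdcbp) stood at 85.9, 69.1 and 72.8 in the caput, at 52.4, 46.0 and 53.9 in the corpus and at 73.3, 53.9 and 73.5 in the cauda. The corpus lay below the caput in every pool, and Sdcbp fell 1.41-fold there (log2 -0.49 ± 0.16, adjusted p = 0.0428, edgeR), which was lost without P56 replicate 1 (-0.43, adjusted p = 0.345) or replicate 2 (-0.66, adjusted p = 0.078) and with the pool not used as a block (-0.47, adjusted p = 0.111).

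The core budding genes gave no segment difference that passed the test. Tsg101 stood at 135, 98.6 and 110 CPM in the caput, at 132, 100 and 96.0 in the corpus and at 99.7, 95.0 and 109 in the cauda, and the segments overlapped. Its log2 difference from caput to cauda was 0.06 ± 0.19 (SE), with the TMM factors that scale the libraries set to 1 it was -0.16 (adjusted p = 0.408), and without the P42 pool it was 0.31 (adjusted p = 0.0409, edgeR) although the CPM of both P56 pools were slightly lower in the cauda. Pdcd6ip stood at 69.7, 42.4 and 48.3 in the caput, at 59.2, 38.4 and 36.2 in the corpus and at 62.6, 36.7 and 43.3 in the cauda, with the P42 pool highest in each segment. Its log2 difference from caput to cauda was 0.04 ± 0.13 (adjusted p = 0.846, edgeR).

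The release GTPases were scarce in principal cells. Rab27b stood at 5.09, 2.66 and 3.5 CPM in the caput, at 5.46, 3.11 and 2.22 in the corpus and at 2.62, 0.49 and 0.989 in the cauda, and the cauda lay below the other segments of the same pool. It fell 2.77-fold from caput to cauda (log2 -1.47 ± 0.32, adjusted p = 0.00854, edgeR) and as much from corpus to cauda (-1.47 ± 0.33, adjusted p = 0.0207, edgeR). The fall from the caput was not seen past the threshold with each cell gated on its markers (-0.69, adjusted p = 0.244), without P56 replicate 1 (-1.23, adjusted p = 0.0925) or without replicate 2 (-1.52, adjusted p = 0.0664), and in the same settings the fall from the corpus had adjusted p = 0.328, 0.244 and 0.116. Rab27a held 44 UMIs in all principal cells and was left out of the test of segments by the filter on low counts.

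Of the 8 genes tested in principal cells, 4 differed between the segments (Cd9, Cd63, Cd81 and Rab27b), against 43.6% of 15576 genes tested. From caput to cauda 5 of 8 changed, all of them lower, against 36.0% of all genes in either direction and 18.7% lower, and their median log2 difference was -0.88 against 0.0 over all genes. From caput to corpus 4 of 8 changed, all lower, against 36.8% and 18.5% of all genes, and from corpus to cauda 2 of 8 changed, against 14.1%. Library sizes were scaled by TMM factors, which assume that most genes do not change. With the factors set to 1 the median of all genes moved by -0.22 from caput to cauda, by -0.12 from corpus to cauda and by -0.095 from caput to corpus on the log2 scale, and none of these calls turned direction. Without cluster 9, the P42 cauda held 624 CPM of Cd63 and 320 of Cd81 in 211 principal cells, and the falls from caput to cauda were -2.66 for Cd63 (adjusted p = 0.00269, edgeR) and -2.84 for Cd81 (adjusted p = 0.0125, edgeR). Of these 211 cells, 112 lay in cluster 0 and 70 in cluster 12, whose cells came mostly from the corpus.

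The rest of the pathway, taken as lists by function, was mixed. Of all genes, 17.4% rose and 18.7% fell from caput to cauda, which are the shares to set beside the lists below. Of 28 genes of the ESCRT machinery, 1 rose and 4 fell from caput to cauda. Hgs, the subunit that gathers ubiquitinated cargo, stood at 13.4, 10.3 and 12.1 CPM in the caput, at 63.5, 58.6 and 61.9 in the corpus and at 16.1, 18 and 14.2 in the cauda, with no overlap between the corpus and the rest. Hgs rose 5.5-fold from caput to corpus (log2 2.46 ± 0.19, adjusted p = 5.08e-05, edgeR) and was 1.59-fold higher in the cauda than in the caput (0.67 ± 0.19, adjusted p = 0.027, edgeR; 0.44, adjusted p = 0.0576 with the TMM factors set to 1). The late subunits Chmp4c, Chmp6 and Chmp5 fell from caput to cauda (log2 -1.49, -1.04 and -0.59).

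Of 13 other tetraspanins, 1 rose and 5 fell from caput to cauda. Tspan1 stood at 65.2, 38.9 and 42.0 CPM in the caput, at 3.76, 1.91 and 1.78 in the corpus and at 1.31, 1.05 and 2.1 in the cauda, and fell 24.9-fold to the cauda (log2 -4.64 ± 0.31, adjusted p = 2.88e-05, edgeR). Tspan6 stood at 56.5, 49.3 and 51.0 in the caput, at 5.58, 3.5 and 1.89 in the corpus and at 6.76, 2.52 and 1.48 in the cauda, and fell 15.5-fold (-3.95 ± 0.30, adjusted p = 4.52e-05, edgeR). The caput thus lay above the rest without overlap for both. Tspan8 moved the other way, from 0, 0.0459 and 0.0522 in the caput to 2.18, 2.03 and 2.91 in the cauda (adjusted p = 0.000162, edgeR).

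Among 9 genes of the syndecan, syntenin and ceramide route, 3 fell and none rose from caput to cauda. Syndecan 1 (Sdc1), whose cytoplasmic tail binds syntenin, stood at 64.3, 33.9 and 36.7 CPM in the caput, at 7.76, 3.61 and 1.83 in the corpus and at 9.6, 2.66 and 4.76 in the cauda. It fell 7.3-fold to the cauda (log2 -2.87 ± 0.28, adjusted p = 0.000157, edgeR), together with the sphingomyelinases Smpd1 (-2.19) and Smpd2 (-1.04). The sphingomyelinase Smpd3 went the other way, with 1.86 (adjusted p = 0.0517) to the cauda and a rise of 2.31 to the corpus (adjusted p = 0.0156, edgeR). Smpd3 was scarce, at 0.15, 0.138 and 0.157 CPM in the caput, at 0.849, 0.655 and 0.666 in the corpus and at 1.09, 0.14 and 0.556 in the cauda. From caput to corpus 2 genes of this list rose and 4 fell, against 18.3% and 18.5% of all genes. Of 19 Rab GTPases, Rab27 effectors and SNAREs of release, 2 rose and 5 fell. The Rab27 effector Sytl4 (granuphilin) stood at 157, 130 and 121 in the caput, at 18.2, 16.3 and 11.2 in the corpus and at 1.74, 4.34 and 6.12 in the cauda, so that the segments did not overlap, and it fell 25.7-fold to the cauda (-4.69 ± 0.42, adjusted p = 0.000103, edgeR). The effectors Sytl5 and Exph5 also fell (-4.71 and -2.47), and Ralb and Vamp3 rose (0.73 and 0.48). Both Sytl5 and Exph5 were scarce, at 1.65 to 2.97 and 3.03 to 4.04 CPM in the caput and at 0 to 0.436 and 0 to 0.68 in the cauda.

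Of 12 vesicle-associated membrane proteins, 2 rose and 4 fell, with the EWI protein Igsf8, a direct partner of Cd9 and Cd81, at log2 -2.47, Flot1 at -1.18, Bsg at -0.98, the chaperone Hspa8 at 0.90 and the lysosomal protein Lamp1 at 0.81. Of 7 cargo proteins of epididymosomes, 3 rose and 1 fell. The antioxidant enzyme Gpx5 stood at 46400, 81500 and 72200 CPM in the caput, at 148, 256 and 41.9 in the corpus and at 351, 348 and 330 in the cauda, while Crisp1, Cd52 and Dpp4 rose to the cauda (log2 6.45, 5.96 and 1.54). Over the 3 segments, 32.1% of the ESCRT list, 53.8% of the other tetraspanins, 77.8% of the syndecan route, 42.1% of the Rab list, 58.3% of the membrane proteins and 100% of the cargo list passed the test, against 43.6% of all genes. These shares are descriptions and were not tested. With the TMM factors set to 1, 0 ESCRT genes rose and 9 fell from caput to cauda, against 12.7% and 23.6% of all genes. The rises of Lamp1 and Vamp3 then had adjusted p = 0.184 and 0.165 (edgeR).

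Within the caput the tetraspanins followed different clusters of principal cells. Clusters were formed without the vesicle genes, and values are given where a library had 50 or more cells. Principal cells of the caput lay mostly in clusters 6, 8, 13, 18, 19 and 24, those of the corpus in clusters 0, 2, 12, 20 and 27, and those of the cauda in clusters 9 (P42) and 1 (P56). Cd63 was highest in cluster 18, led by Tecta and Cst12 (2000 CPM at P42 and 2010 in P56 replicate 2) and in cluster 24, led by Aldh1l1 and Trpm6 (2100 at P42), and lowest of the caput in cluster 8, led by Ntsr2 and Rnase13 (608, 684 and 585). Cd81 ran the other way, with 1050, 906 and 896 in cluster 8 and 273 in cluster 24. Cluster 6, led by Cst12 and Teddm2, had 378, 234 and 247 CPM of Cd81 beside 1710, 1930 and 1760 of Cd63. Among the clusters with 50 or more cells, the highest exceeded the lowest in the 3 caput libraries 3.85, 3.87 and 4.13-fold for Cd81 and 3.45, 2.82 and 3.44-fold for Cd63.

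In the corpus, cluster 27, led by Spag11a and Defb21 and sharing Lcn5, Defb30 and Epp13 among its leading genes with cluster 8, held the highest Cd81 (947 CPM at P42 and 869 in P56 replicate 1, from 98 and 334 cells). Cluster 20, led by Spint4 and Spint5, had 437, 379 and 338, and cluster 2, led by Defb26 and Defb22, had 139, 35.0 and 28.5. Fewer than 50 cells of cluster 27 came from P56 replicate 2, the corpus library with the lowest Cd81. In the cauda, Cd81 stood at 190 in cluster 9 of the P42 pool and at 21.9 and 22.6 in cluster 1 of the P56 pools. Cells of 1 cluster in 1 library are not replicates, so these values are a description with no test.

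**Figure D2:**
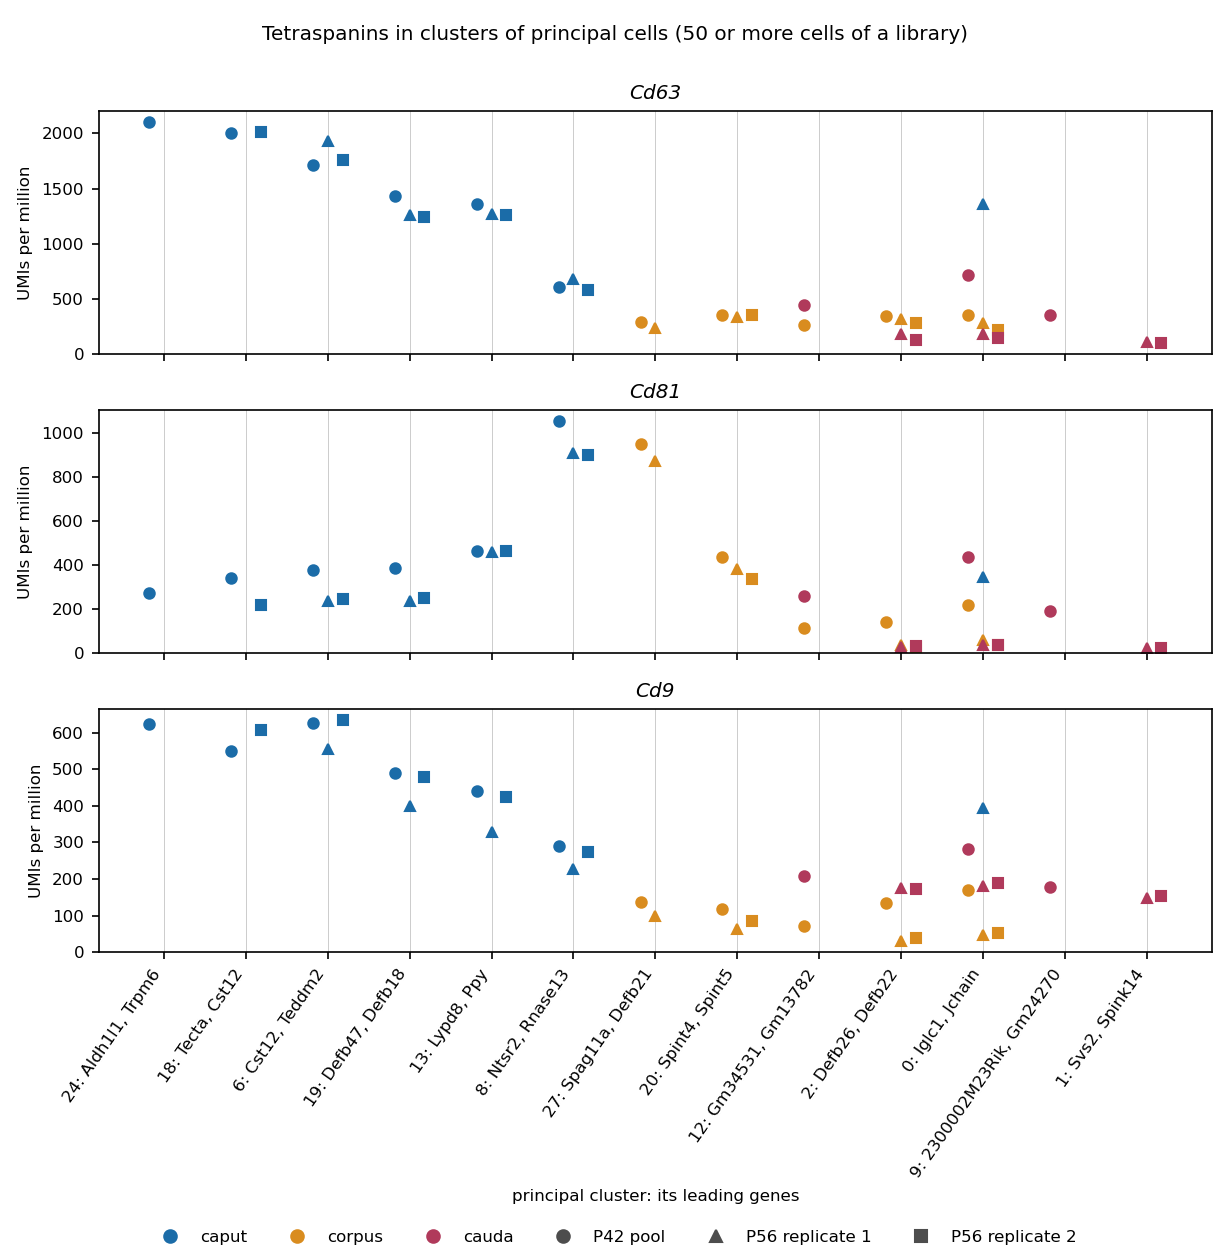
Levels of Cd63, Cd81 and Cd9 (CPM, linear axes from 0) in clusters of principal cells, each named by its leading genes, with 1 point for each library with 50 or more cells; colour gives the segment and shape the pool. In the caput clusters (blue) Cd63 and Cd9 are lowest where Cd81 is highest, in the cluster led by Ntsr2 and Rnase13.

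With the UMIs of all cells of a library summed, 5 of 9 genes differed between segments (Cd9, Cd63, Cd81, Rab27b and Sdcbp), against 29.5% of 18469 genes. Cd63 fell from caput to cauda (log2 -1.65 ± 0.32, adjusted p = 0.0112, edgeR), and so did Cd81 (-1.65 ± 0.46, adjusted p = 0.0388, edgeR) and Rab27b (-1.04 ± 0.24, adjusted p = 0.0205, edgeR), which made 3 of 9 against 25.8% of all genes in either direction and 14.3% lower. From caput to corpus 2 of 9 fell, Cd63 (-1.77 ± 0.32) and Cd9 (-1.76 ± 0.27), against 21.1% in either direction and 10.2% lower. From corpus to cauda 1 of 9 rose, against 9.65% in either direction and 3.21% higher. This was Sdcbp, at 86.5, 56.7 and 64.7 CPM in the corpus and at 141, 71.7 and 91.4 in the cauda (1.52-fold, adjusted p = 0.0384, edgeR). It was higher in the cauda within every pool, while the segments overlapped across pools. With P56 replicate 1 or replicate 2 left out, 0 of the 9 genes passed the test over segments, and with the P42 pool left out 7 did.

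The fall of Cd63 and Cd81 was also measured in the other populations, with UMIs summed in each. Of 36 pairs of gene and population, 12 differed between segments, against 14.0% of the 47967 pairs of all genes with these 5 populations. Cd63 fell from caput to cauda in all 5, the basal, clear/narrow, myoid/fibroblast, macrophage/monocyte and endothelial cells, where 8.89%, 7.66%, 6.28%, 7.33% and 3.59% of all genes were lower. In macrophages/monocytes Cd63 stood at 1450, 1650 and 1650 CPM in the caput, at 417, 433 and 408 in the corpus and at 619, 310 and 264 in the cauda, with the caput above all other libraries, and fell 3.9-fold to the cauda (log2 -1.96 ± 0.29, adjusted p = 0.00161, edgeR).

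In basal cells, which sit at the base of the epithelium, Cd63 stood at 1170, 1440 and 1210 CPM in the caput, at 483, 469 and 422 in the corpus and at 590, 421 and 350 in the cauda. It fell 2.38-fold to the cauda (log2 -1.25 ± 0.21, adjusted p = 0.000933, edgeR), with no overlap between the caput and the rest. In clear/narrow cells, which acidify the lumen, it stood at 1030, 1010 and 957, at 379, 390 and 415 and at 459, 251 and 213 in the 3 segments, and fell 2.58-fold (-1.37 ± 0.22, adjusted p = 0.0029, edgeR). With cluster 17 counted as clear/narrow, the fall was -1.004 for Cd63 (adjusted p = 0.00362, edgeR) and -1.21 for Cd81 (adjusted p = 0.00032, edgeR). In myoid cells/fibroblasts the fall was 2.22-fold (-1.15 ± 0.32, adjusted p = 0.0477, edgeR), with the largest adjusted p of these 5 calls, and was lost with the pool not used as a block (-1.07, adjusted p = 0.116), with clusters at resolution 2 (-0.90, adjusted p = 0.0948) and without either P56 replicate (adjusted p = 0.381 and 0.462).

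Cd81 fell from caput to cauda in 4 of the 5 populations. In clear/narrow cells it stood at 521, 360 and 331 CPM in the caput, at 215, 139 and 109 in the corpus and at 229, 61.7 and 72.2 in the cauda, all below the caput (log2 -1.55 ± 0.20, adjusted p = 0.000802, edgeR). Basal cells had -1.20 ± 0.22 (adjusted p = 0.00208, edgeR), macrophages/monocytes -1.53 ± 0.27 (adjusted p = 0.00416, edgeR) and endothelial cells -1.49 ± 0.29 (adjusted p = 0.00252, edgeR). In myoid cells/fibroblasts the difference was -1.07 ± 0.34 (adjusted p = 0.0808, edgeR), where the P42 cauda stood at 635 beside 131 and 107 in the P56 cauda. Without P56 replicate 1, 0 of the pairs passed the test over segments and 5 did without replicate 2, and the log2 differences of Cd63 from caput to cauda without replicate 1 were -1.17 in basal and -1.82 in macrophage/monocyte cells.

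Cd9 fell from caput to corpus in 2 of these populations, macrophages/monocytes and myoid cells/fibroblasts, where 6.59% and 4.93% of all genes were lower. In macrophages/monocytes it stood at 478, 436 and 610 CPM in the caput, at 148, 114 and 106 in the corpus and at 132, 238 and 250 in the cauda, below the caput in every library (corpus log2 -2.03 ± 0.33, adjusted p = 0.00323, edgeR; cauda -1.18 ± 0.32, adjusted p = 0.0363, edgeR). In myoid cells/fibroblasts it fell to the corpus (-1.26 ± 0.22, adjusted p = 0.00702, edgeR). Basal cells also lost Rab27b, from 49.0, 25.1 and 42.3 in the caput to 35.4, 9.66 and 10.6 in the corpus and 29.7, 10.7 and 7.99 in the cauda, lower than the caput in every pool (cauda 2.31-fold, log2 -1.21 ± 0.27, adjusted p = 0.00683, edgeR), and Cd151 fell to the cauda (-0.67 ± 0.18, adjusted p = 0.0214, edgeR). These falls of basal Rab27b and Cd151 were lost without P56 replicate 1 (adjusted p = 0.0605 and 0.434) or replicate 2 (adjusted p = 0.193 and 0.144).

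Principal cell markers were measured in the other populations too, at 23.7% to 65.6% of their level in the principal cells of the same library in basal cells, at 23.9% to 78.0% in clear/narrow cells, at 18.1% to 87.1% in myoid cells/fibroblasts, at 22% to 109% in macrophages/monocytes at 19.2% to 69.6% in endothelial cells, at 31.9% to 54.0% in halo/T cells and at 47.0% to 78.0% in sperm. Their part in the segment differences of these populations, and in the population and age values below, was not tested.

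**Figure D3:**
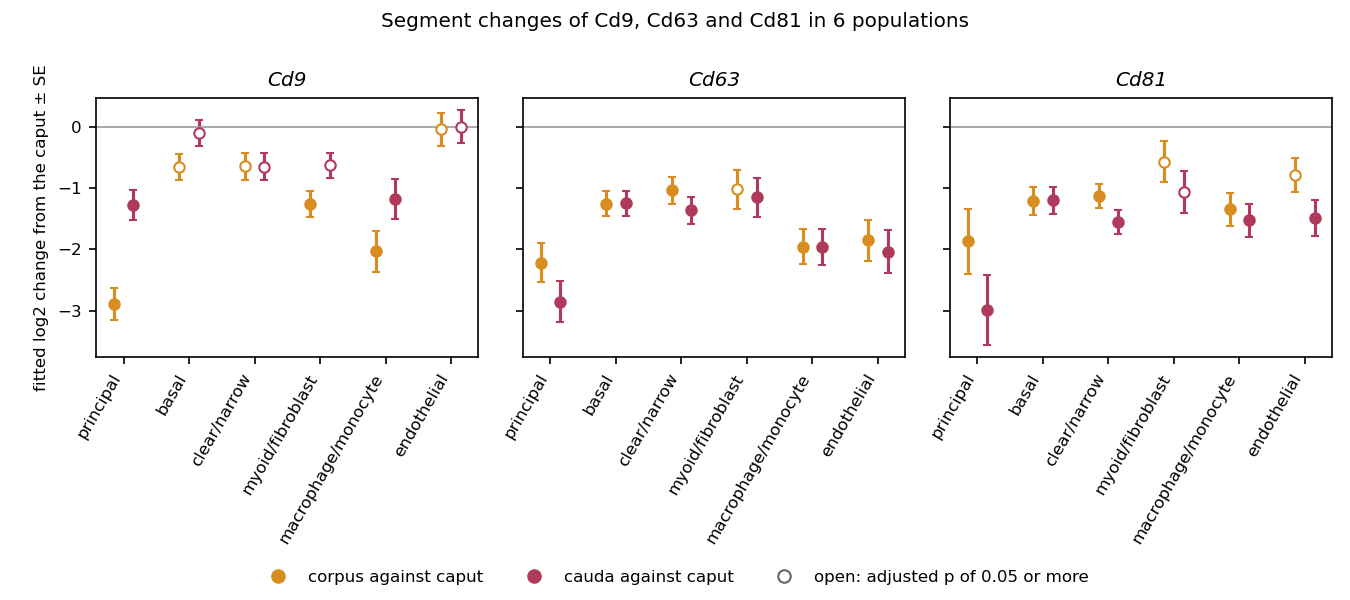
Fitted log2 change from the caput (± SE) of Cd9, Cd63 and Cd81 in the corpus and cauda for 6 populations; filled points passed an adjusted p of 0.05 and open points did not. Cd63 lies below 0 in all 6 populations, and for Cd9 the principal cells of the corpus lie lowest.

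Whether these falls were larger in principal cells than in the mean of the other 5 populations was tested as a difference of differences. From caput to corpus 1 of 9 genes passed, against 2.52% of 13815 genes, from caput to cauda 2 of 9, against 0.999%, and from corpus to cauda 1 of 9, against 0.145%. Cd9 fell more in principal cells from caput to corpus, by a further -1.99 ± 0.27 on the log2 scale (adjusted p = 1.28e-05, edgeR), and rose more from corpus to cauda (1.19 ± 0.27, adjusted p = 0.0431, edgeR). Cd63 and Cd81 fell more in principal cells from caput to cauda, by -1.27 ± 0.32 (adjusted p = 0.0346, edgeR) and -1.52 ± 0.38 (adjusted p = 0.0313, edgeR). The first of these was lost without P56 replicate 1 (-1.84, adjusted p = 0.0793). The further rise of Cd9 was lost with the TMM factors set to 1 (adjusted p = 0.0537), without the highest Scrublet scores (0.0569), at resolution 2 (0.0509), with unnamed clusters counted (0.0666) and without P56 replicate 1 or 2 (1.10, adjusted p = 1.0 and 1.11, adjusted p = 0.925). The further falls of Cd63 and Cd81 were lost with the TMM factors set to 1 (adjusted p = 0.126 and 0.14), without P56 replicate 1 (both adjusted p = 1.0), without replicate 2 (adjusted p = 0.429 and 0.595) and without cluster 9 (-0.85, adjusted p = 0.262 and -1.14, adjusted p = 0.162), and that of Cd63 also without the highest Scrublet scores (adjusted p = 0.0588).

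Between populations, 41 of 72 pairs of gene and population differed from the mean of the other populations, 22 higher and 19 lower, against 28.6% of the 115224 pairs of all genes. The fitted levels use TMM factors and all libraries, and cover 8 populations without the ciliated-like cells. Among these, basal cells came first for Cd9 and Cd151, myoid cells/fibroblasts for Cd63 and Cd81, and macrophages/monocytes for Sdcbp. The first and the next in that order did not differ past the threshold for Cd9 (adjusted p = 0.44), Cd151 (0.515) and Cd81 (0.0772), and the mean CPM within a segment gave other orders in places. Endothelial cells had 512 CPM of Cd9 in the corpus beside 391 in basal cells, and 126 and 110 of Cd151 in the corpus and cauda beside 112 and 95.2. In the caput, macrophages/monocytes had 1580 of Cd63 beside 1520 in myoid cells/fibroblasts, and endothelial cells had 565 of Cd81 beside 543. The ciliated-like cells of the caput, which were not fitted, had more Cd81 than either, at a mean of 708 (646 to 792). With the TMM factors set to 1 the median of all genes moved by -0.37 for principal, 0.21 for halo/T, 0.20 for endothelial and -0.11 for macrophage/monocyte cells.

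**Figure D4:**
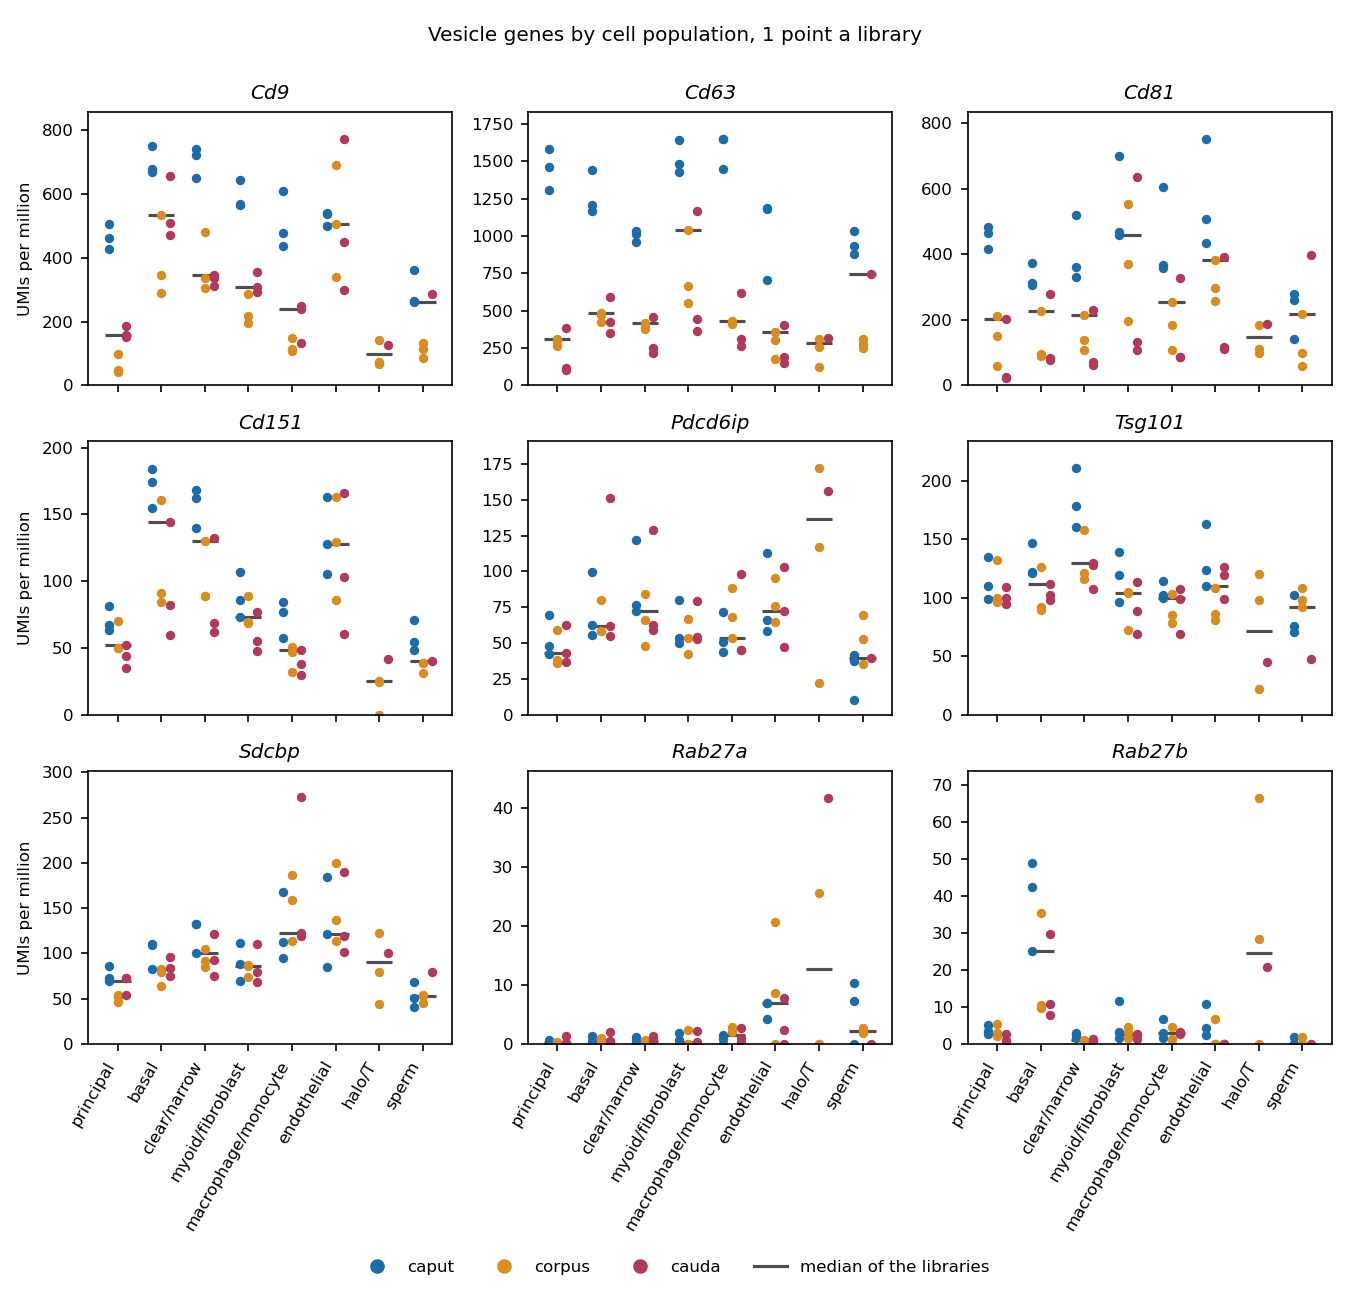
Levels of the 9 vesicle genes (CPM, linear axes from 0 that differ between genes) in 8 populations, with 1 point per library coloured by segment and a line at the median of the libraries. Rab27b stands high in basal and halo/T cells, and within most populations the caput points of Cd63 lie highest.

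In basal cells 5 of 9 genes differed from the other populations, against 26.4% of 14403 genes. Cd9 in basal cells ranged from 290 over a median of 535 to 752 CPM in 9 libraries, and in principal cells from 41.9 over 158 to 506, so that the ranges overlapped across segments. It was 1.92-fold higher in basal cells than in the mean of the others (log2 0.94 ± 0.14, adjusted p = 3.62e-07, edgeR). Cd151 ranged from 59.8 over 144 to 184 in basal cells and from 34.6 over 51.9 to 81.1 in principal cells, and was 1.87-fold higher in basal cells than in the others (0.91 ± 0.09, adjusted p = 1.22e-13, edgeR). In the order of levels, Cd9 went from basal over clear/narrow and endothelial to myoid/fibroblast cells with no neighbours passing the test. It then dropped to macrophages/monocytes (adjusted p = 0.0468, edgeR), followed by principal, sperm and halo/T cells with no later neighbours passing. In the corpus the mean of Cd9 was 62.0 CPM in principal, 111 in sperm and 93.9 in halo/T cells, which had no caput sum. With the TMM factors set to 1, Cd9 in principal cells had -0.019 against sperm (adjusted p = 0.971, edgeR). For Cd151 the order was basal, clear/narrow and endothelial, then myoid/fibroblast (adjusted p = 0.0258, edgeR), principal, macrophage/monocyte (adjusted p = 0.00337, edgeR), sperm (adjusted p = 0.034, edgeR) and halo/T cells. The last 2 of these steps were lost with the TMM factors set to 1 (adjusted p = 0.354 and 0.159), and Cd151 in myoid/fibroblast cells passed over principal cells (0.40, adjusted p = 0.00268, edgeR). Under that scaling endothelial cells also came above clear/narrow cells for Cd9 and Cd151 without passing (adjusted p = 0.519 and 0.953), and for Cd9 above myoid/fibroblast cells (adjusted p = 0.0499, edgeR).

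In clear/narrow cells 5 of 9 genes differed, against 37.7% of all genes. Cd151 (log2 0.78 ± 0.09, adjusted p = 1.56e-11, edgeR), Cd9 (0.68 ± 0.15, adjusted p = 0.000131, edgeR) and Tsg101 (0.47 ± 0.08, adjusted p = 1.28e-06, edgeR) were higher, and both Rab27 genes were lower. In principal cells 3 of 9 differed, against 47.4%, with Tsg101 higher (0.47 ± 0.08, adjusted p = 5.11e-07, edgeR; 0.07, adjusted p = 0.468 with the TMM factors set to 1), Cd9 lower by 1.3-fold (adjusted p = 0.044, edgeR, and adjusted p = 0.355 without the P42 pool, 0.157 and 0.101 without P56 replicates 1 and 2) and Rab27a lower. Tsg101 ranged from 107 over a median of 130 to 211 CPM in clear/narrow cells and from 95.0 over 100 to 135 in principal cells, which overlapped. Its mean CPM in the caput, corpus and cauda was 183, 132 and 122 in clear/narrow cells, 115, 109 and 101 in principal cells and 130, 102 and 104 in basal cells. The fitted level of principal cells was 0.36 above basal cells (adjusted p = 0.00221, edgeR) with TMM factors and -0.037 (adjusted p = 0.78) with the factors set to 1, while that of clear/narrow cells was 0.003 above principal cells (adjusted p = 0.991) with TMM factors and 0.40 (adjusted p = 0.000196, edgeR) with the factors set to 1, so the order of these 3 populations rests on the scaling.

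In myoid cells/fibroblasts 5 of 9 genes differed, against 21.8% of all genes. Cd63 ranged from 363 over 1040 to 1640 CPM and was 2.01-fold higher than in the others (log2 1.01 ± 0.12, adjusted p = 3.26e-10, edgeR). Cd81 ranged from 107 over 458 to 701 and was 2.02-fold higher (1.01 ± 0.13, adjusted p = 1.85e-09, edgeR). Cd63 in these cells stood above macrophages/monocytes, the next in the order (adjusted p = 0.0398, edgeR), whereas for Cd81 no neighbours in the order from myoid/fibroblast over endothelial, macrophage/monocyte, principal, clear/narrow and basal to sperm and halo/T cells passed the test. Under factors of 1, Cd81 in macrophages/monocytes passed over principal cells (0.49, adjusted p = 0.0238, edgeR), principal cells had -0.25 against clear/narrow cells (adjusted p = 0.235), and Cd63 in basal cells passed over principal cells (0.57, adjusted p = 0.00159, edgeR).

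In macrophages/monocytes 3 of 9 genes differed, against 18.3%. Sdcbp ranged from 95.4 over 123 to 273 CPM there, from 46.0 over 69.1 to 85.9 in principal cells and from 41.3 over 53.0 to 79.8 in sperm, and macrophages/monocytes did not overlap with either. It was 1.91-fold higher than in the others (log2 0.93 ± 0.09, adjusted p = 5.55e-14, edgeR) and higher than in endothelial cells, the next in the order (adjusted p = 0.00665, edgeR; 0.555 with the TMM factors set to 1). Against the mean of the other populations, the calls of Cd9, Cd151 and Rab27b in basal cells, of Cd63 and Cd81 in myoid cells/fibroblasts and of Sdcbp in macrophages/monocytes held under every alternative run.

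In endothelial cells 6 of 9 genes differed, against 25.5%, in halo/T cells 7 of 9, against 12.4%, and in sperm 7 of 9, against 39.2%. In sperm 6 of them were lower, against 15.9% of all genes, among them Pdcd6ip (log2 -0.61), which stood at 10.1 over a median of 39.9 to 69.9 CPM. That call was lost by DESeq2 (-0.34, adjusted p = 0.0509), at resolution 2 (-0.25, adjusted p = 0.275) and with the gate (-0.19, adjusted p = 0.457). Sperm were fitted below principal cells for Pdcd6ip (adjusted p = 0.0289, edgeR; 0.803 with the TMM factors set to 1), but in the corpus their mean was 52.8 beside 44.6 in principal cells. From halo/T over clear/narrow, basal, endothelial, macrophage/monocyte and myoid/fibroblast to principal cells, no neighbours in the order of Pdcd6ip passed the test, and with the TMM factors set to 1 myoid/fibroblast over principal cells did (0.29, adjusted p = 0.039, edgeR).

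The Rab27 genes had the most uneven distribution. Rab27b in basal cells ranged from 7.99 over 25.1 to 49.0 CPM, in principal cells from 0.49 over 2.66 to 5.46 and in clear/narrow cells from 0.635 over 1.16 to 3.12. Basal cells did not overlap with either. Rab27b was 6.62-fold higher in basal cells than in the mean of the others (log2 2.73 ± 0.19, adjusted p = 2.6e-19, edgeR), and 2.59 above myoid/fibroblast cells, the next in the order after halo/T and basal cells (adjusted p = 2.4e-13, edgeR). A UMI of Rab27b was found in 452 of 3726 basal cells (12.1%, exact 95% binomial interval 11.1 to 13.2, median 6226.5 UMIs per cell) and in 334 of 21099 principal cells (1.58%, 1.42 to 1.76, median 5589). Sperm, whose transcription has largely ceased, had 0.606% (0.165 to 1.54, median 4679). With all cells thinned to 1000 UMIs the shares were 2.23%, 0.313% and 0.0872%. The intervals cover counting error only.

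Rab27a was fitted highest in halo/T and endothelial cells, which did not differ from each other past the threshold (adjusted p = 0.241, edgeR). In halo/T cells, 21 of 262 held a UMI of Rab27a (8.02%, 5.03 to 12, median 2806 UMIs per cell), in endothelial cells 32 of 776 (4.12%, 2.84 to 5.77, median 5814) and in principal cells 44 of 21099 (0.209%, 0.152 to 0.28, median 5589), and thinned to 1000 UMIs the shares were 2.93%, 0.747% and 0.0449%. In endothelial cells it ranged from 0 over 7.03 to 20.7 CPM and was 4.05-fold higher than in the others (log2 2.02 ± 0.39, adjusted p = 3.52e-05, edgeR). Sperm came next, with a UMI in 17 of 660 cells (2.58%, 1.51 to 4.09, median 4679; 0.416% thinned), and did not differ from endothelial cells past the threshold (adjusted p = 0.48, edgeR). Against the mean of the others sperm had log2 1.41 (adjusted p = 0.0171, edgeR), which was lost without P56 replicate 1 (1.19, adjusted p = 0.104) or 2 (adjusted p = 0.338) and was -0.96 (adjusted p = 0.571) at resolution 2. Halo/T cells had 4 sums of at least 10 cells. Rab27a stood at 25.6 and 41.7 in the P42 corpus and cauda and at 0 in both P56 corpus sums, of 17 and 11 cells (log2 3.38 ± 0.54, adjusted p = 1.95e-06, edgeR). Without the P42 pool the fitted value was -4.86 (adjusted p = 0.846), since both remaining sums held no UMI of Rab27a. Rab27b in halo/T cells stood at 28.5, 0 and 66.3 in the corpus and at 20.9 in the P42 cauda (2.74 ± 0.49, adjusted p = 2.85e-05, edgeR; 3.04, adjusted p = 0.174 without the P42 pool).

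Between the ages, the test compared 1 P42 pool with 2 P56 pools and assumed that the P42 libraries vary like the P56 libraries. It treated the 3 segments of a pool as separate samples although they share mice. Within P56, the differences between the replicates correlated between segments at 0.108 to 0.243 over 8934 genes, and p-values of a mean over segments are too small where segments of a pool vary together. In principal cells 2 of 9 genes differed in the mean of the segments, against 27.4% of 18008 genes. Cd81 fell 1.84-fold from P42 to P56 (log2 -0.88 ± 0.22, adjusted p = 0.0194, edgeR), and Tsg101 rose 1.2-fold (0.26 ± 0.08, adjusted p = 0.0423, edgeR). With the TMM factors set to 1 the median of all genes moved by -0.52 in the mean of the segments and by -0.75 in the cauda on the log2 scale, and under that scaling Tsg101 turned to -0.26. Tsg101 also missed the threshold by DESeq2 (adjusted p = 0.0754), with no filter on low counts (0.054), without mitochondrial genes (0.076) and in the additive model (0.362). Cd81 missed it with no filter (-0.85, adjusted p = 0.0747) and in the additive model (-0.98, adjusted p = 0.165).

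In the cauda 4 of 9 genes differed with age, against 28.8% of all genes. Cd81 stood at 203 CPM at P42 and at 23.4 and 23.9 at P56, and fell 5.0-fold (log2 -2.32 ± 0.39, adjusted p = 0.00276, edgeR). Cd63 stood at 383, 118 and 104 and fell 2.01-fold (-1.004 ± 0.205, adjusted p = 0.00674, edgeR). Tsg101 (0.81 ± 0.15, adjusted p = 0.00391, edgeR) and Cd9 (0.52 ± 0.17, adjusted p = 0.0449, edgeR) were fitted higher at P56, although the levels in CPM overlapped for Tsg101 and were lower at P56 for Cd9, and with the TMM factors set to 1 Cd9 turned to -0.26 and Tsg101 had 0.032 (adjusted p = 0.924). Cd9 also missed the threshold by DESeq2 (adjusted p = 0.0592), with no filter (0.0744), without mitochondrial genes (0.072), with the gate (0.256) and without cluster 9 (0.193). In the caput and in the corpus 0 of 9 genes passed edgeR's test, against 0.639% and 3.15% of all genes, with 1 gene in each at an unadjusted p under 0.05 and 0 by DESeq2. The change with age differed between the cauda and the caput for 3 of 9 genes, against 13.3%, which were Cd81 (-2.58 ± 0.57, adjusted p = 0.0225, edgeR), Cd63 (-1.13 ± 0.30, adjusted p = 0.039, edgeR) and Tsg101 (0.89 ± 0.20, adjusted p = 0.0235, edgeR). With no filter on low counts all 3 were lost (adjusted p = 0.0792, 0.0869 and 0.0548), and with the TMM factors set to 1 Tsg101 was lost (0.41, adjusted p = 0.356).

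Set against the corpus instead of the caput, the change with age in the cauda differed by log2 -1.44 for Cd63, -1.76 for Cd81 and 0.77 for Tsg101 in principal cells. These differences did not pass the threshold. In the corpus itself Cd9 was fitted lower at P56 (-0.66), short of the threshold. The P42 cauda stood apart in its principal cells. Of its 1821 principal cells, 1610 lay in cluster 9, with a median of 1502.5 UMIs per cell. The 14 markers of myoid cells/fibroblasts summed to 16300 CPM in its principal cells, beside 81500 in the myoid cells/fibroblasts of that library, and to 489 and 450 in the principal cells of the P56 cauda. The 13 macrophage/monocyte markers summed to 2740 there and to 83.0 to 663 in the other principal sums. Myoid cells/fibroblasts of the P42 cauda held 635 CPM of Cd81 and 1170 of Cd63, above the levels in its principal cells. Without cluster 9 the fall with age in the cauda was -1.46 for Cd63 (adjusted p = 0.00153, edgeR) and -2.73 for Cd81 (adjusted p = 0.00226, edgeR). Of the 211 cells then left in the P42 cauda, 112 lay in cluster 0 and 70 in cluster 12, whose cells came mostly from the corpus. These fits thus set mostly cells of such clusters against the P56 cauda, and cannot show the age change within clusters of the cauda. The part of the myoid/fibroblast and macrophage/monocyte markers in the age difference of the cauda was not tested.

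**Figure D5:**
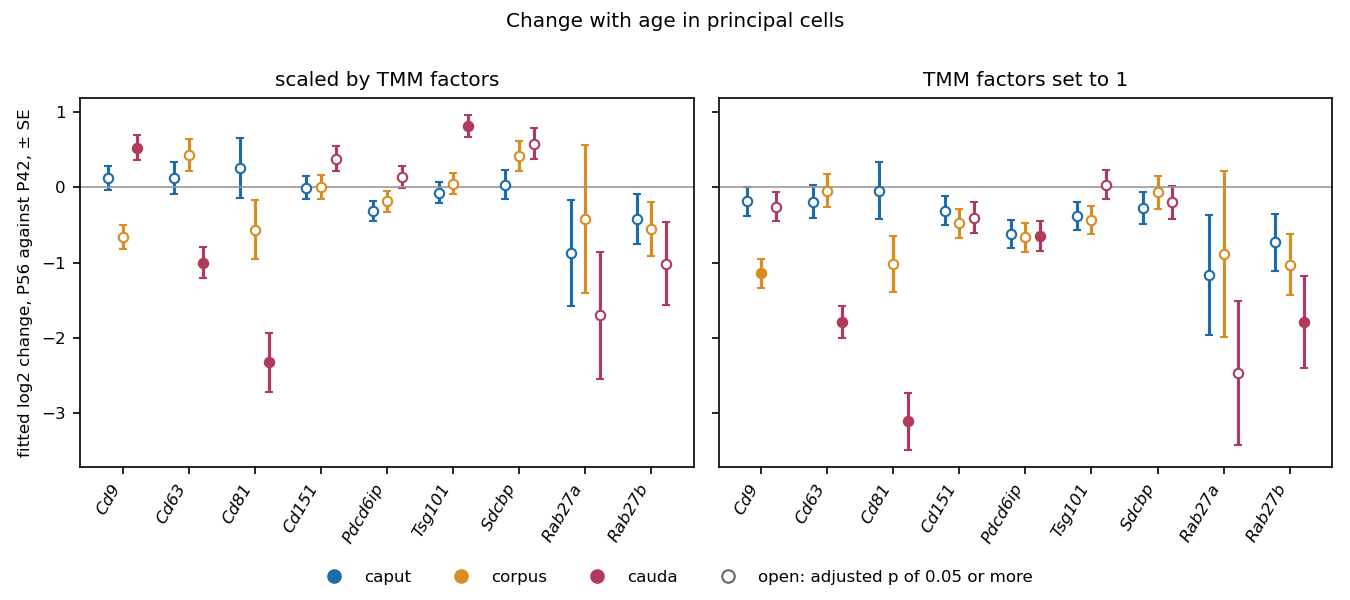
Fitted log2 change from P42 to P56 (± SE) of the 9 vesicle genes in principal cells by segment, with TMM factors on the left and with the factors set to 1 on the right; filled points passed an adjusted p of 0.05. Cd81 and Cd63 of the cauda lie below 0 under both scalings, while Cd9 of the cauda moves from 0.52 on the left to -0.26 on the right.

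With all cells of a library summed, 3 of 9 genes differed with age in the mean of the segments, against 43.2% of 21273 genes. The mixture of cells in these sums also moved with age. Halo/T cells, fitted highest for Rab27a, numbered 118 in the P42 corpus and 17 and 11 at P56, and 98 in the P42 cauda and 5 and 1 at P56. Myoid cells/fibroblasts, fitted highest for Cd63 and Cd81, numbered 1418 in the P42 cauda and 572 and 409 at P56. The part of these numbers in the changes of whole libraries was not tested. Cd81 fell (log2 -0.89 ± 0.18, adjusted p = 0.00479, edgeR; 0.0819 in the additive model), Rab27a fell (-1.30 ± 0.33, adjusted p = 0.014, edgeR), and Tsg101 rose (0.50 ± 0.10, adjusted p = 0.00354, edgeR; -0.097 with the TMM factors set to 1, and adjusted p = 0.154 in the additive model). In the cauda 6 of 9 differed, against 43.0%, with Cd63 (-0.95), Cd81 (-2.07) and Rab27a (-2.23) lower and Tsg101 (1.24), Cd9 (0.81) and Cd151 (0.50) fitted higher. With the TMM factors set to 1, Tsg101 had 0.48 (adjusted p = 0.0639), Cd9 had 0.049 (adjusted p = 0.86) and Cd151 turned to -0.25, and by DESeq2 Rab27a had adjusted p = 0.0522. In the caput and in the corpus 0 of 9 passed edgeR's test, against 4.13% and 15.7%, with 1 gene in each at an unadjusted p under 0.05 and 0 by DESeq2. The change with age differed between the cauda and the caput for 3 of 9, against 21.1%, which were Tsg101 (1.29 ± 0.23, adjusted p = 0.0077, edgeR), Cd63 (-1.35 ± 0.29, adjusted p = 0.0153, edgeR) and Cd81 (-2.12 ± 0.46, adjusted p = 0.0158, edgeR).

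In the mean of the segments, 2 of 8 genes fell with age in basal cells, against 18.9% of 13265 genes in either direction and 6.97% lower, and in clear/narrow cells 1 of 7, against 24.4% of 12853 and 10.6% lower. Cd81 fell in both (-0.55 ± 0.12, adjusted p = 0.0049 and -0.50 ± 0.13, adjusted p = 0.00839, edgeR), and Rab27b fell in basal cells (-0.76 ± 0.23, adjusted p = 0.0299, edgeR). These calls were lost in the additive model (adjusted p = 0.0774, 0.0761 and 0.0945), and by DESeq2 Cd81 in clear/narrow cells (adjusted p = 0.0581) and Rab27b (adjusted p = 0.156) were lost. With each cell gated on its markers, Cd81 in basal cells had -0.17 (adjusted p = 0.514), Cd81 in clear/narrow cells adjusted p = 0.376 (0.0519 with cluster 17 counted as clear/narrow) and Rab27b in basal cells adjusted p = 0.267. In the cauda alone, 2 of 8 genes differed in basal cells, against 15.2%, and 3 of 7 in clear/narrow cells, against 20.9%. Cd81 was lower in both (-0.90 and -0.84) and lost in both with the gate (adjusted p = 0.478 and 0.783), and in clear/narrow cells also by DESeq2 (adjusted p = 0.0792) and with cluster 17 counted (adjusted p = 0.279). Tsg101 was fitted higher in both (0.93 and 0.78) and had 0.039 and -0.15 with the TMM factors set to 1, and Cd9 was fitted higher in clear/narrow cells (0.83) and turned to -0.10. Principal cell markers in basal cells stood at 23.7% to 39.1% of their level in principal cells at P42 and at 36.4% to 65.6% at P56. In clear/narrow cells they stood at 23.9% to 30.3% at P42 and at 25.4% to 78.0% at P56. The part of these markers in the age differences of both populations was not tested. The change with age differed between the cauda and the caput for 0 genes of either population by edgeR, against 4.4% and 9.1%, with 2 genes in each at an unadjusted p under 0.05 and 0 by DESeq2.

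The genes whose level was most like that of each member over the 65 library and population sums are given as a description, among 7868 genes with a mean of at least 10 CPM. The measure was Pearson's r of log2(CPM + 1). The sums share libraries, segments and principal cell RNA. Cd63 was most like Bmyc (0.92), P4ha2 (0.912) and Rem1 (0.898), Cd9 like Prnp (0.859), Ndrg1 (0.851) and Crip2 (0.846), Cd81 like Eid1 (0.853), Fkbp1a (0.848) and Svil (0.836), and Cd151 like Psmc6 (0.896), Ctnna1 (0.895) and Alg14 (0.878). Sdcbp was most like Fcho2 (0.872), Rap1a (0.839) and Lyn (0.839), Tsg101 like Hadh (0.836), Nedd4l (0.807) and Arf1 (0.786), and Pdcd6ip like Phip (0.811), Parp9 (0.805) and Brd1 (0.772). The scarce Rab27b reached 0.672 with Gsto1, 0.658 with Ly6d and 0.655 with 4930523C07Rik, and Rab27a reached 0.621 with Rnf125, 0.596 with Gimap6 and 0.595 with Tln1. Between the members, r was highest for Cd81 with Cd63 (0.792), Cd151 with Tsg101 (0.735) and Cd151 with Cd9 (0.702).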

How the data were processed

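The deposited table holds raw UMI counts of 32195 genes in 44869 barcodes (307987941 UMIs in all), which the authors made from Singleron GEXSCOPE libraries with fastp, STAR 2.7.3a on GRCm38.p6, featureCounts and UMI-tools. The 9 genes, the gene lists and the markers were chosen with earlier results of these data known. From these counts, cells with 300 to 4000 genes, at most 20000 UMIs and at most 50% mitochondrial UMIs were kept (42087). Cells were scaled to 10000 UMIs, log-transformed, centred within each library and clustered with leidenalg 0.10.2 at resolution 1. The clustering used 3000 variable genes without mitochondrial genes and the 105 vesicle genes, 50 components and 20 neighbours. Clusters were named from markers, with thresholds set after the clusters were seen. Scrublet, run in scanpy 1.11.5, called 9 cells (0.0214%) and so had not worked, and the 2100 cells with the highest scores were left out as an alternative.

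UMIs were summed per library and population (10 or more cells) and tested with edgeR 4.0.16 (quasi-likelihood, filterByExpr, TMM factors, Benjamini-Hochberg over all genes, called below an adjusted p of 0.05) in R 4.3.3. Between segments the pool was a block, because its 3 segments were taken from shared mice. Deviations of libraries of the same pool correlated at 0.0531 to 0.657 over 8934 genes (median 0.424, 9 pairs), and those of different pools at -0.607 to 0.451 (median -0.208, 18 pairs). Alternatives were DESeq2 1.42.0, TMM factors set to 1, no filter on low counts, mitochondrial genes left out, resolution 2, a gate on each cell's markers, cells thinned to 1000 UMIs, no block, an additive age model and each pool left out. Leaving out the low-UMI cluster, counting unnamed clusters as principal or clear/narrow cells, the library as a block the test of age changes between segments and neighbouring populations with factors of 1 were added after seeing the data. In simulated data with a log2 change of 2 in 200 genes, the fits recovered 99.5% (segments, 15142 genes), 98.5% (age, 15467 genes), 100% (populations, 11368 genes) and 98% (population by segment, 12017 genes). The false calls in these numbered 9, 4, 14 and 9. Many changes called here are smaller than 2, and their recovery is not given by this simulation. Genes named outside the 9 followed a rule of the largest called changes within each list, and the genes most alike were the 3 with the highest r.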

Additional observations from a re-analysis of the deposited data

Results flagged for a closer look

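In 4 results the change between segments differed between principal cells and the mean of the other 5 populations. For Cd9 the further log2 change in principal cells was -1.99 ± 0.27 (SE) from caput to corpus (adjusted p = 1.28e-05, edgeR's quasi-likelihood test) and 1.19 ± 0.27 from corpus to cauda (adjusted p = 0.0431, edgeR). From caput to cauda it was -1.27 ± 0.32 for Cd63 (adjusted p = 0.0346, edgeR) and -1.52 ± 0.38 for Cd81 (adjusted p = 0.0313, edgeR). The first was lost without P56 replicate 1 (adjusted p = 0.0793). The other 3 were lost with the TMM factors set to 1 (adjusted p = 0.0537, 0.126 and 0.14) and without either P56 replicate (adjusted p = 0.429 to 1.0), and those of Cd63 and Cd81 also without cluster 9, the low-UMI cluster of the P42 cauda (adjusted p = 0.262 and 0.162).

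In 3 results the change with age in principal cells differed between the cauda and the caput. The difference of the log2 changes from P42 to P56 was -1.13 ± 0.30 for Cd63 (adjusted p = 0.039, edgeR), -2.58 ± 0.57 for Cd81 (adjusted p = 0.0225, edgeR) and 0.89 ± 0.20 for Tsg101 (adjusted p = 0.0235, edgeR). All 3 were lost with no filter on low counts (adjusted p = 0.0869, 0.0792 and 0.0548), and that of Tsg101 with the TMM factors set to 1 (0.41, adjusted p = 0.356). With all cells of a library summed, the same difference was -1.35 ± 0.29 for Cd63 (adjusted p = 0.0153, edgeR), -2.12 ± 0.46 for Cd81 (adjusted p = 0.0158, edgeR) and 1.29 ± 0.23 for Tsg101 (adjusted p = 0.0077, edgeR). Set against the corpus, the difference over all cells was -1.13 for Cd63, -1.45 for Cd81 and 0.94 for Tsg101, short of the threshold, while Cd9 passed it with 1.23. All of these rest on 1 P42 pool, and its cauda also carried the low-UMI cluster and the myoid/fibroblast markers given in the report, whose part in these values was not tested. No group had 4 or more libraries, so single libraries were not screened for standing far from the others.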

How the results depend on the processing

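Of 4338 values under the alternatives, 3613 kept their direction and side of the threshold, 311 changed sign with no call in either setting, 242 lost and 149 gained a call, and 23 turned direction with a call in at least 1 of the settings. Members that differed between segments numbered 4 in principal cells (2 to 6 with 1 pool left out), 5 with all cells summed (0 to 7) and 12 pairs in the other populations (0 to 17). With no replicate block for the pool, those of all cells and of the other populations were 2 and 8. The 41 population calls were 24 with the marker gate, 23 thinned to 1000 UMIs, and 23 to 31 with 1 pool left out. The 4 population-by-segment calls were 1 with TMM factors set to 1, 2 leaving out the highest Scrublet scores, 2 with the gate, 2 without the low-UMI cluster, 8 with the library as a block and 0 to 7 with 1 pool left out. The 2 age calls in principal cells were 1 by DESeq2, 7 with TMM factors set to 1, 0 with no filter, 1 without mitochondrial genes, 4 with the gate and 0 in the additive model. The 3 of all cells were 8 with TMM factors set to 1 and 1 in the additive model, and the 3 of basal and clear/narrow cells were 1 by DESeq2, 9 with TMM factors set to 1 and 0 in the additive model. The shares of all genes called under these alternatives are not given beside these counts. Turned values (log2) with TMM factors set to 1 were -0.27 for Cd151 in principal cells against the other populations, -0.037 for Tsg101 in principal against basal cells, with age -0.40 (Cd151) and -0.26 (Tsg101) in the mean of principal cells, -0.26 (Cd9) and -0.65 (Pdcd6ip) in the principal cells of the cauda, -0.41 (Cd151), -0.39 (Cd9), -0.58 (Sdcbp) and -0.097 (Tsg101) over all cells, -0.37 (Cd9, basal), -0.54 (Cd151, clear/narrow) and -0.33 (Cd63, clear/narrow), and in the cauda -0.25 (Cd151, all cells), -0.67 (Pdcd6ip, all cells), -0.10 (Cd9, clear/narrow) and -0.15 (Tsg101, clear/narrow). With 1 pool left out, values turned without the P42 pool and ran from -0.345 to 0.403 (Tsg101, all cells, caput to cauda), from -1.521 to 0.091 (Rab27a, basal), from -0.545 to 0.066 (Cd151, macrophage/monocyte) and from -4.862 to 3.657 (Rab27a, halo/T). The others were -0.19 (Cd151, myoid/fibroblast, gate) and -0.96 (Rab27a, sperm, resolution 2). The scaling by construction moves all genes of a library together, and for the rest the cause was not tested. Among the 9 genes Rab27a had the fewest UMIs in principal cells, with 44 in all of them.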

Other observations

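Around the 9 genes, the lists of the wider vesicle machinery were called at shares both above and below those of all genes, and the lists themselves were not tested. In basal cells, 6 of 9 tested genes of the syndecan route were higher and none lower than in the mean of the other populations, among them Sdc1 (4.6-fold, log2 2.20 ± 0.18 SE, adjusted p = 2.59e-16, edgeR's quasi-likelihood test), Sdc4 (1.96 ± 0.16) and the phospholipase Pld1 (1.49). Of 12 membrane proteins 8 were higher in basal cells, including Ptgfrn (1.12), Flot2 (1.01) and Lamp2 (0.76). The Rab27 effector Mlph was higher (1.14 ± 0.18), and in the ESCRT list 2 genes were higher and 1 lower. Clear/narrow cells had 12 of 27 ESCRT genes higher and 1 lower, with Chmp4c at 0.98, and 9 of the Rab list higher and 1 lower, with Rab31 at 1.56 ± 0.24 and Mlph at 1.42. Tspan1 was 8.51-fold higher there (3.09 ± 0.36, adjusted p = 1.54e-10, edgeR), and the heparanase Hpse, which trims syndecan chains, had 2.17 ± 0.36. In principal cells 10 of 27 ESCRT genes were higher and 1 lower, with Hgs at 0.79 ± 0.13, and of the syndecan route 1 was higher and 4 were lower, with Sdc4 at -1.29 and Sdc2 at -0.99. With the TMM factors set to 1, which moves the median of all genes in principal cells by -0.37, 1 ESCRT gene was higher and 12 were lower in principal cells, Hgs had 0.39 (adjusted p = 0.0107, edgeR), and of the syndecan route 0 were higher and 7 lower. In basal cells 5 ESCRT genes were then higher and 1 lower and in clear/narrow cells 14 higher and 0 lower. Against the first counts, 15.3% of all genes were higher and 11.1% lower in basal, 28.3% higher and 19.1% lower in principal cells, and in clear/narrow cells 37.7% differed, with 17.7% lower. Of the ESCRT list 11.1% was called in basal cells against 26.4% of all genes and 40.7% in principal cells against 47.4%, and of the other tetraspanins 33.3% was called in principal cells.

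From P42 to P56 in principal cells, the direction of the ESCRT and Rab lists rested on the scaling. With TMM factors, 8 of 28 ESCRT genes were fitted higher and 1 lower in the mean of the segments, and 5 of 20 of the Rab list higher and 1 lower. Of all genes 27.4% were called, 14.7% higher and 12.8% lower. With the factors set to 1, 0 ESCRT genes were higher and 14 lower, and 0 of the Rab list higher and 11 lower, while the median of all genes moved by -0.52. The shares of all genes higher and lower under that scaling are not given here, so these counts are not read as a result about the lists. Chmp5 went from log2 0.42 to -0.099 (adjusted p = 0.475) and Vps28 from 0.42 to -0.10 (adjusted p = 0.478), so no direction is given for them. Of 11 genes of the syndecan route, 1 was higher and 6 were lower with TMM factors and 1 and 8 with the factors set to 1. Under both scalings Arf6 rose (0.93 and 0.41) and Chmp6 (-0.61 and -1.14) and Sdc3 (-1.72 and -2.23) fell. Sdc3 was scarce, at 0.0555 to 1.96 CPM in the principal cells of the libraries. The leukocyte tetraspanins Cd37 and Cd53 also fell (-2.03 and -1.29). Beside them, the 13 macrophage/monocyte markers summed in principal cells to 2740 CPM in the P42 cauda and to 83.0 and 185 in the P56 cauda, to 663 against 180 and 175 in the corpus while the P42 sum of the caput (365) lay between those of P56, and their part in these falls was not tested. All of these rest on 1 P42 pool, in which age and pool cannot be told apart.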
